A study of Drosophila melanogaster with 12 samples.

Results

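Female Drosophila melanogaster that had mated on 2 successive days were compared with females that had mated once, and the comparison covered every probe set of a genome-wide expression array. The double mated group had 4 arrays and the single mated group had 4, out of 12 arrays in the study, and 18769 of 18952 probe sets entered, the remainder being 183 Affymetrix controls. The other 4 arrays held virgin females. They are used here only to share the estimate of the spread and as a level to read beside the mated groups.

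All flies came from LHM, a large outbred wild-type laboratory population, and each array (Affymetrix Drosophila Genome 2.0) held RNA from its own pool of 8 whole females. Females of all 3 groups were collected as virgins on day 9, kept singly and given live yeast on day 12. Double mated females were housed with a male for 60 min on day 12, and those that had not mated or were still in copula by then were discarded. They mated again on day 13. Single mated females met no male on day 12 and mated on day 13, the virgin group met none, and females of both of these groups were briefly anesthetized on day 12, when the males were taken from the double mated group. Mated females of both kinds were frozen 6 h after their last mating. The males were the cross of a pair of inbred LHM lines, collected as non-virgins. The groups therefore differed by an additional mating, by an additional exposure to a male and by the selection of females that mated on day 12. They also differed in the time since their first mating, which was on day 12 in double mated and day 13 in single mated females. These differences cannot be told apart. The written protocol used here breaks off as the day 13 matings begin, and no clock time of freezing is given.

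Mating in this species transfers sperm and seminal fluid proteins, which change female physiology for days. Sex peptide, a seminal fluid protein carried on sperm, acts on female neurons through its receptor SPR, and egg laying rises while willingness to remate falls. Mated females also make more juvenile hormone, enlarge the gut, eat more and switch on immune peptide genes. The array reads all tissues of the fly together, so fewer cells of a type and less RNA per cell cannot be told apart in any value below.

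Each probe set has a single value per array, from the RMA method and on the log2 scale, so that a difference of 1 is a 2-fold change. Medians of the 8 mated arrays lay between 6.00 and 6.07. Female markers stood at the top of the scale: yolk protein gene Yp1 read 15.11, 15.16, 15.10 and 15.18 in the double mated arrays, against 15.11, 15.08, 15.13 and 15.14 in the single mated arrays, and the chorion gene Cp36 read 14.53, 14.51, 14.49 and 14.31, against 14.38, 14.40, 14.13 and 14.45. These groups overlapped for both genes. Double mated replicate 4 stood apart. The SD of its differences from the mean of the other double mated arrays, over all probe sets, was 0.245, against 0.144 to 0.185 for the other mated arrays. On the first principal component of the 8 mated arrays, which held 34.9% of the variance, double mated replicates 1 to 3 lay at 13.3, 17.0 and 17.4, replicate 4 at 0.11 and the single mated arrays between -13.96 and -7.99. The control probe sets for the ends of the actin transcript differed by 1.38 (3′ minus 5′, log2) on that array, against 0.714 to 1.12 on the other double mated arrays and 0.705 to 0.869 on the single mated arrays. For the translation factor eIF-4a this gap was 1.50, against 0.669 to 1.03 and 0.705 to 0.875. For GAPDH it was 1.41, within the 1.26 to 1.55 of the other double mated arrays. The part of this array's RNA quality in any result was not tested, and counts of calls are given below with this array, and also without it wherever the count differs.

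Among the genes that passed the test, the immune peptides, the inner eggshell genes and 21 of 23 cytochromes P450 were higher in double mated females, and the juvenile hormone enzymes, metallothioneins and DNA replication genes were lower. A call below means an adjusted p under 0.05 in limma (Benjamini-Hochberg over all probe sets). Calls were made for 992 of 18769 probe sets (5.29%), 666 of them higher (3.55%) and 326 lower (1.74%) in double mated females. Changes were small in general: the median size among called probe sets was 0.37 on the log2 scale, and only 42 of the higher and 7 of the lower ones exceeded 2-fold. Without double mated replicate 4, 2171 probe sets were called (11.6%), 1186 higher (6.32%) and 985 lower (5.25%), and 961 of the 992 were among them with the same direction. The share of higher calls was 67.1% with that array and 54.6% without it. At the level of genes, each represented by its brightest probe set with a single symbol, 807 of 11982 were called (6.74%), 560 higher (4.67%) and 247 lower (2.06%). Without that array 1797 genes were called, 999 higher (8.34%) and 798 lower (6.66%), and 785 of the 807 were shared. All 4 double mated arrays lay above all 4 single mated arrays for 838 genes (6.99%) and below them for 696 (5.81%). An unadjusted p under 0.05 was reached by 2997 of the 11982 genes (25.0%), the share to set beside such counts below. Counts of calls in a gene list are likewise to be set beside 4.67% higher and 2.06% lower. Without double mated replicate 4 these shares are 8.34% and 6.66%. The difference was above 0 for 5144 of the 11982 genes.

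**Figure D1:**
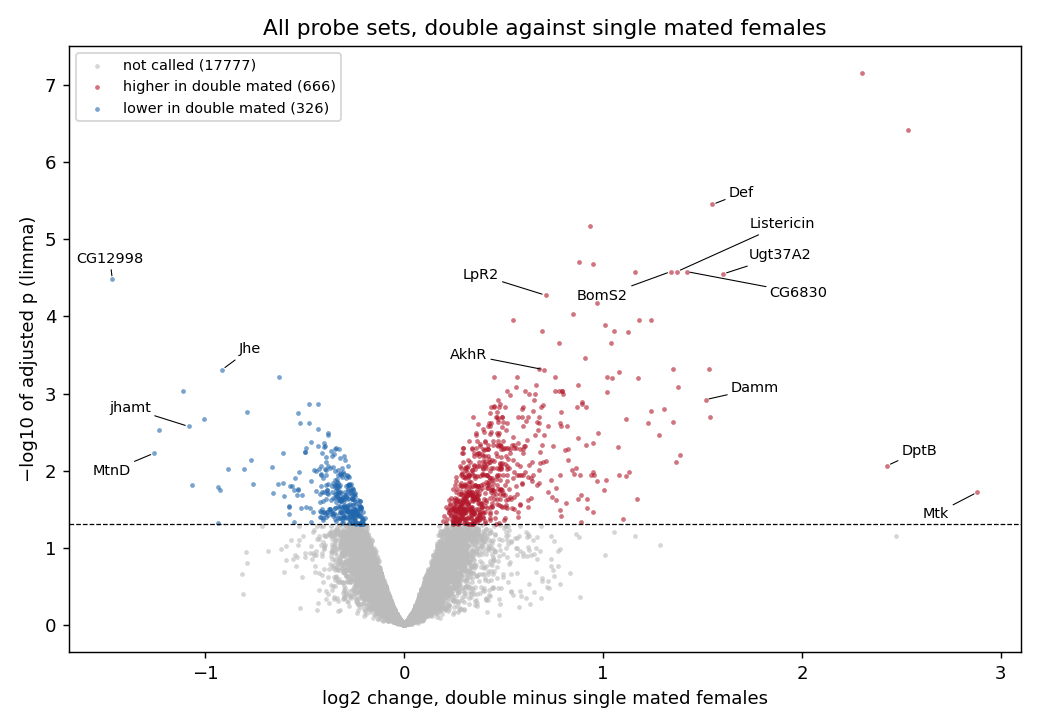
Change of every probe set between double and single mated females (x axis, log2, double minus single mated) against the minus log10 of its adjusted p from limma (y axis), with the dashed line at the threshold of 0.05. The 666 red points (higher in double mated) outnumber the 326 blue ones (lower). The largest labelled increases are Mtk and DptB, the largest labelled decrease is CG12998, and the uppermost pair of red points are probe sets with no gene symbol here.

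The largest increases of named genes were in antimicrobial peptides, short secreted proteins that kill or restrain microbes. Of 23 listed, 13 had a probe set of their own, 5 rose and none fell (6 and 0 without double mated replicate 4), against 6.74% of all genes called. Their median change was 0.35, against -0.02 over all genes. Metchnikowin (Mtk, probe set 1627613_at), which acts on fungi and bacteria, read 12.55, 11.29, 9.61 and 12.09 in the double mated arrays, against 9.73, 6.60, 9.25 and 8.42 in the single mated arrays. Double mated replicate 3 fell within the single mated values, and the other 3 double mated arrays lay above all of them. The mean difference was 7.37-fold (95% interval 2.83 to 19.2), with an adjusted p of 0.0191. The call ended without double mated replicate 1 (adjusted p 0.0521). It also ended in limma fits to the 8 mated arrays alone and with an intensity trend (adjusted p up to 0.0697). The SD of Mtk was 1.29 in double mated, 1.38 in single mated and 0.57 in virgin arrays, which share the estimate of the spread. Diptericin B (DptB, 1638235_at), a peptide of the Imd pathway directed at Gram-negative bacteria, read 11.30, 10.67, 8.35 and 10.71, against 8.45, 7.12, 7.96 and 7.79 in single mated females. Here too replicate 3 was the low double mated array, and it lay below 1 single mated array. The difference was 5.38-fold (95% interval 2.7 to 10.7), adjusted p 0.00863, and the call held in each fit that left out 1 array, with adjusted p up to 0.0325.

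Defensin (Def, 1634271_at), directed at Gram-positive bacteria, was far steadier. It averaged 9.23 ± 0.16 in double mated and 7.68 ± 0.12 in single mated females (SD, n = 4 each), with arrays at 9.31, 9.28, 9.33 and 8.98 against 7.71, 7.66, 7.53 and 7.81. All double mated arrays exceeded all single mated ones by over 1 log2 unit, and the difference of 2.93-fold (95% interval 2.5 to 3.43) had an adjusted p of 3.52e-06. Virgin arrays read 7.34 to 7.85, overlapping the single mated ones. Listericin (1633812_at), an antibacterial peptide, read 10.74, 10.68, 10.93 and 10.35 in double mated females, against 9.25, 9.13, 9.60 and 9.24 in single mated females, again without overlap. Its difference was 2.59-fold (95% interval 2.17 to 3.09), adjusted p 2.61e-05, while virgin arrays lay at 7.10 to 7.34. The 3 groups were thus separate, with levels highest in double mated and lowest in virgin females. Attacin D (AttD), of the attacin family of antibacterial peptides, was dim and higher by 1.77-fold (95% interval 1.43 to 2.19) (adjusted p 0.00523), with double mated arrays at 5.08, 5.76, 5.38 and 5.96 against 4.84, 4.79, 4.68 and 4.57 in single mated females. Among the members not called, Drosomycin (Drs), the antifungal peptide read most strongly here, stood at 12.79 to 13.02 in double mated and 12.55 to 12.83 in single mated females (adjusted p 0.173). Cecropin B (CecB) was at 7.18 to 7.49 against 6.68 to 7.19 (adjusted p 0.055).

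Bomanins, short peptides induced by the Toll pathway that are needed against Gram-positive bacteria and fungi, were higher as a family. Of 12 listed, 8 had a probe set of their own and 7 rose, with a median change of 0.99 over the 8 and no overlap between the groups for 7. BomS2 (1640360_at) read 12.47, 12.39, 12.16 and 12.70 in double mated arrays, against 10.89, 11.05, 11.30 and 11.11 in single mated arrays. The lowest double mated value exceeded the highest single mated one by over 0.8, and the difference was 2.53-fold (95% interval 2.14 to 3), adjusted p 2.61e-05. BomS5 was higher by 2.47-fold (95% interval 1.87 to 3.26) and BomBc3 by 2.36-fold (95% interval 1.81 to 3.09). Double mated arrays of BomT2 lay at 10.94 to 11.27, against 9.97 to 10.46 in single mated females, and those of BomT3 at 9.73 to 9.80, against 8.85 to 9.29. BomT2 was higher by 2.02-fold (95% interval 1.73 to 2.35) and BomT3 by 1.71-fold (95% interval 1.47 to 2), and the highest single mated array was replicate 3 for both. BomS4 and BomBc2, which the naming rule did not select, were higher by 1.96-fold (95% interval 1.55 to 2.48) and 1.94-fold (95% interval 1.46 to 2.58). BomS6, the member not called (adjusted p 0.0629), read 12.49, 12.73, 12.52 and 11.95 in double mated females, against 11.93, 11.56, 12.22 and 11.93, and passed without double mated replicate 4 (adjusted p 0.00465), its lowest double mated array. Virgin females did not have the lowest levels: the mean over the 8 Bomanins was 11.22 to 11.41 in double mated, 10.03 to 10.58 in single mated and 10.57 to 10.63 in virgin arrays.

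Genes that carry immune signals had both higher and lower calls. In the Toll pathway 3 of 16 measured members rose and none fell, and without double mated replicate 4 the calls were 6 higher and 1 lower. Necrotic (nec), a serpin that restrains the Toll protease cascade, read 9.85, 9.98, 10.04 and 9.88 in double mated females, against 9.52, 9.41, 9.56 and 9.54 in single mated females, with no overlap, and rose by 1.35-fold (95% interval 1.22 to 1.49) (adjusted p 0.0024). The proteases or protease homologues Hayan and sphe were higher by 1.29-fold and 1.35-fold. Both calls were lost in some fits that left out 1 array, with adjusted p up to 0.0695 for Hayan (without double mated replicates 2 and 3 and single mated replicates 2 and 3) and 0.0895 for sphe (without double mated replicates 1 to 3 and single mated replicates 1 to 4). In the Imd pathway 2 of 14 members fell and none rose: the kinase IKKbeta, at 0.808 times the single mated level (95% interval 0.717 to 0.91), and the adaptor Fadd, at 0.859 times the single mated level (95% interval 0.79 to 0.936). Their adjusted p was 0.0381 and 0.0392, and went up to 0.104 without 1 of double mated replicates 2 and 3, single mated replicates 1 to 4 and virgin replicates 1 and 2 for IKKbeta and to 0.106 without 1 of double mated replicates 1 to 3, single mated replicates 1 to 4 and virgin replicates 1 to 4 for Fadd. Relish (Rel), the transcription factor of that pathway, read 9.95 to 10.19 in double mated and 9.79 to 9.99 in single mated females (adjusted p 0.0791). None of 7 peptidoglycan recognition proteins was called in limma (3 at an unadjusted p under 0.05, and 1 called higher without double mated replicate 4), and the bacterial amidase PGRP-SB1 read 11.29, 10.64, 9.72 and 10.37, against 9.94, 8.90, 10.25 and 9.97 (adjusted p 0.171). Its lowest double mated array was replicate 3, as for Mtk and DptB. None of 8 Turandot and JAK/STAT genes was called (0 at an unadjusted p under 0.05), and 2 of 11 melanization genes rose (4 without double mated replicate 4), Hayan and the serpin Spn28Dc (1.25-fold, adjusted p 0.0138).

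**Figure D2:**
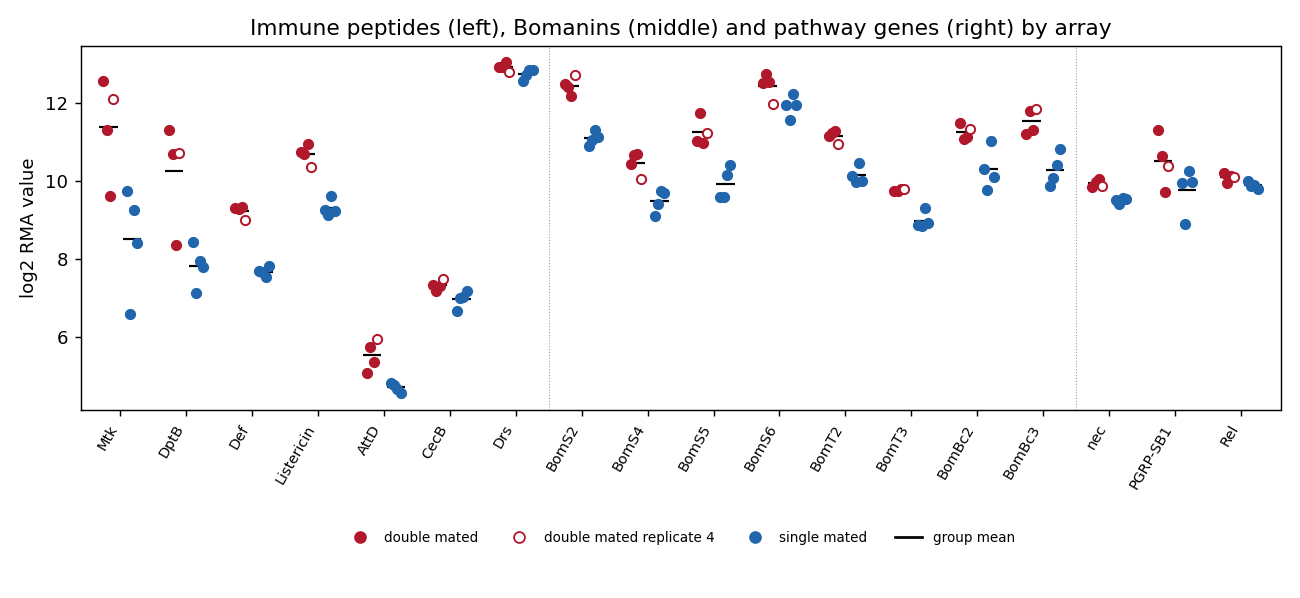
Log2 RMA values (y axis) of antimicrobial peptides, Bomanins and immune pathway genes in each double mated array (red, replicate 4 open) and single mated array (blue), with group means as black lines. Def and the Bomanins other than BomS6 form separate groups, for example Def at 8.98 to 9.33 in double mated and 7.53 to 7.81 in single mated females, while Mtk and DptB are higher on average but spread over more than 2 log2 units among double mated arrays.

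Blood cell and basement membrane genes were higher by small amounts. Of 19 listed and measured, 6 rose and none fell (10 without double mated replicate 4), all 19 differences were above 0, and the median was 0.26. Papilin (Ppn), an extracellular matrix protein, read 9.65, 9.71, 9.73 and 9.76 in double mated females, against 9.27, 9.39, 9.31 and 9.34, which is 1.31-fold (95% interval 1.18 to 1.44) with adjusted p 0.00487. NimB2, a secreted protein of the Nimrod family, was higher by 1.35-fold (95% interval 1.18 to 1.54) and the collagen IV chain Col4a1 by 1.25-fold (95% interval 1.13 to 1.39). The laminin chain LanB1 was higher by 1.25-fold (95% interval 1.12 to 1.4). Its call ended without any 1 of double mated replicates 2 and 3 and single mated replicates 1 and 2, with adjusted p up to 0.0641. Hemolectin (Hml), a defining blood cell gene, was not called and read 7.97 to 8.19 in double mated and 7.94 to 8.16 in single mated females (adjusted p 0.718). Levels over the whole list lay at 8.34 to 8.47 in double mated, 8.12 to 8.24 in single mated and 7.85 to 8.00 in virgin arrays. The part of cell numbers in this shift was not tested.

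Many enzymes that modify foreign compounds and hormones rose. Cytochromes P450, oxidases of such molecules, had 83 measured members, of which 21 rose and 2 fell (24 and 6 without double mated replicate 4), with a median of 0.17. Cyp12a5 (1629771_at), a mitochondrial P450, read 8.30, 8.15, 8.18 and 7.97 in double mated females, against 7.09, 7.10, 7.08 and 6.68 in single mated females. No value of one group came within 0.8 of the other, and the difference was 2.24-fold (95% interval 1.93 to 2.59), adjusted p 2.61e-05. Virgin arrays read 7.48 to 7.74, between the mated groups. Cyp4ad1 was higher by 1.83-fold (95% interval 1.55 to 2.16), Cyp6a21 by 1.69-fold (95% interval 1.46 to 1.96) and Cyp4ac3 by 1.43-fold (95% interval 1.29 to 1.59), each without overlap between the groups. The other 17 that rose had changes of 0.20 to 0.89, and the pair that fell, named here after their values were seen, were Cyp313a4 (-0.56, log2) and Cyp4d14 (-0.58).

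UDP-glycosyltransferases, which attach sugars to small lipophilic molecules, and glutathione transferases had 69 measured members, with 7 higher and 3 lower calls (20 and 5 without double mated replicate 4). Ugt37A2 (1638903_at) had the third largest increase of any named gene. Its values were 8.56, 8.39, 8.12 and 8.09 in double mated arrays, against 6.67, 7.05, 6.63 and 6.39 in single mated arrays, a difference of 3.04-fold (95% interval 2.47 to 3.75) with adjusted p 2.81e-05. The groups were a full log2 unit apart at their closest arrays, and virgin arrays lay between them at 7.36 to 7.84. Ugt35C1 showed the same order, with 9.75 to 10.13 in double mated, 8.41 to 9.02 in single mated and 9.19 to 9.33 in virgin arrays, and was higher than in single mated females by 2.18-fold (95% interval 1.82 to 2.6) (adjusted p 0.000157). Ugt35A1 rose by 1.27-fold (95% interval 1.16 to 1.38). Ugt37B1 ran the other way, with 6.18, 6.09, 6.26 and 6.17 in double mated females against 6.64, 6.74, 6.57 and 6.89, at 0.69 times the single mated level (95% interval 0.615 to 0.775) and adjusted p 0.00177.

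A family of predicted ecdysteroid kinases, enzymes that in insects phosphorylate ecdysteroid hormones and possibly other compounds, was added after the values were seen, because its member CG6830 was among the largest increases and CG33510 among the largest decreases. The list was assembled from general knowledge of the family, and its membership was not checked against an annotation. Of 44 measured members 12 rose and 1 fell (14 and 2 without double mated replicate 4), against 4.67% and 2.06% of all genes, with a median of 0.15. CG6830 is among the 12, and CG33510 is the 1 that fell. The counts thus include the genes that prompted the list and are a description only. CG6830 (1624692_at) read 10.15, 10.28, 10.03 and 10.03 in double mated females, against 8.95, 8.93, 8.52 and 8.40 in single mated females, and was higher by 2.68-fold (95% interval 2.23 to 3.21) (adjusted p 2.61e-05). Its groups were over 1 log2 unit apart, with virgin arrays between them at 9.40 to 9.76. CG33510 (1637958_at) read 5.70, 6.08, 5.66 and 5.50, against 6.89, 6.52, 6.66 and 7.31, and stood at 0.463 times the single mated level (95% interval 0.372 to 0.575) with adjusted p 0.000932. Virgin arrays of this gene were low, at 5.02 to 5.13. JhI-26, a member first described as inducible by juvenile hormone, was higher by 1.33-fold (95% interval 1.15 to 1.54). Its call ended without any 1 of double mated replicates 2 and 3 and single mated replicates 1 and 4, with adjusted p up to 0.0719.

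Genes of nutrient signalling, lipid handling and sugar transport contributed a few clear increases. The receptor of adipokinetic hormone, AkhR, which mobilizes fat body stores, read 8.56, 8.74, 8.81 and 8.53 in double mated females, against 7.85, 8.09, 7.95 and 7.93 in single mated females. This was 1.63-fold (95% interval 1.44 to 1.85) with adjusted p 0.00049, and the groups did not overlap. ImpL2, a secreted binding protein that restrains insulin-like peptides, was higher by 1.43-fold (95% interval 1.26 to 1.61), and these were the 2 genes that rose among 11 of the insulin and adipokinetic hormone list (4 without double mated replicate 4). The lipophorin receptor LpR2, which takes up lipid from circulating lipoprotein, read 8.99, 9.08, 9.04 and 8.83, against 8.33, 8.26, 8.32 and 8.20, a difference of 1.64-fold (95% interval 1.48 to 1.81) with adjusted p 5.3e-05. It and the lipocalin NLaz were the 2 that rose among 13 yolk and lipid transport genes. NLaz read 10.92, 10.86, 10.76 and 10.39, against 10.30, 10.29, 10.37 and 10.40, so that replicate 4 alone fell within the single mated range. The NLaz call ended without any 1 of double mated replicates 1 to 3 and single mated replicates 1 to 3 (adjusted p up to 0.088).

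The trehalose transporter Tret1-1 read 10.72, 10.69, 10.83 and 10.68 in double mated females, against 10.10, 10.39, 10.25 and 10.34, and rose by 1.38-fold (95% interval 1.24 to 1.53) (adjusted p 0.002). Virgin arrays of Tret1-1 lay at 10.57 to 10.68, near the double mated ones. With the glutamate transporter Eaat2 (1.27-fold) and the amino acid transporter path (1.23-fold), it made up the 3 of 15 transporters that rose. Among 16 fatty acid synthesis and lipid droplet genes 3 rose (4 without double mated replicate 4), the phosphatidate phosphatase Lpin (1.27-fold), the fatty acid synthase FASN2 (1.27-fold) and mdy (1.17-fold), which makes triglyceride. All 3 of these lipid calls, and that of path, ended in at least 3 fits that left out 1 array, with adjusted p up to 0.0641, 0.0717, 0.104 and 0.101 in that order. The arrays concerned were double mated replicates 1 and 3 and single mated replicates 1 and 2 for Lpin, double mated replicate 3 and single mated replicates 1 and 2 for FASN2, double mated replicates 1 to 3, single mated replicates 2 to 4 and virgin replicates 2 and 3 for mdy and double mated replicates 2 and 3, single mated replicates 1 to 3 and virgin replicate 2 for path. Yolk protein genes Yp2 and Yp3 read 15.11 to 15.19 and 14.89 to 14.97 in double mated females, against 15.06 to 15.11 and 14.89 to 14.97, and were not called.

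**Figure D3:**
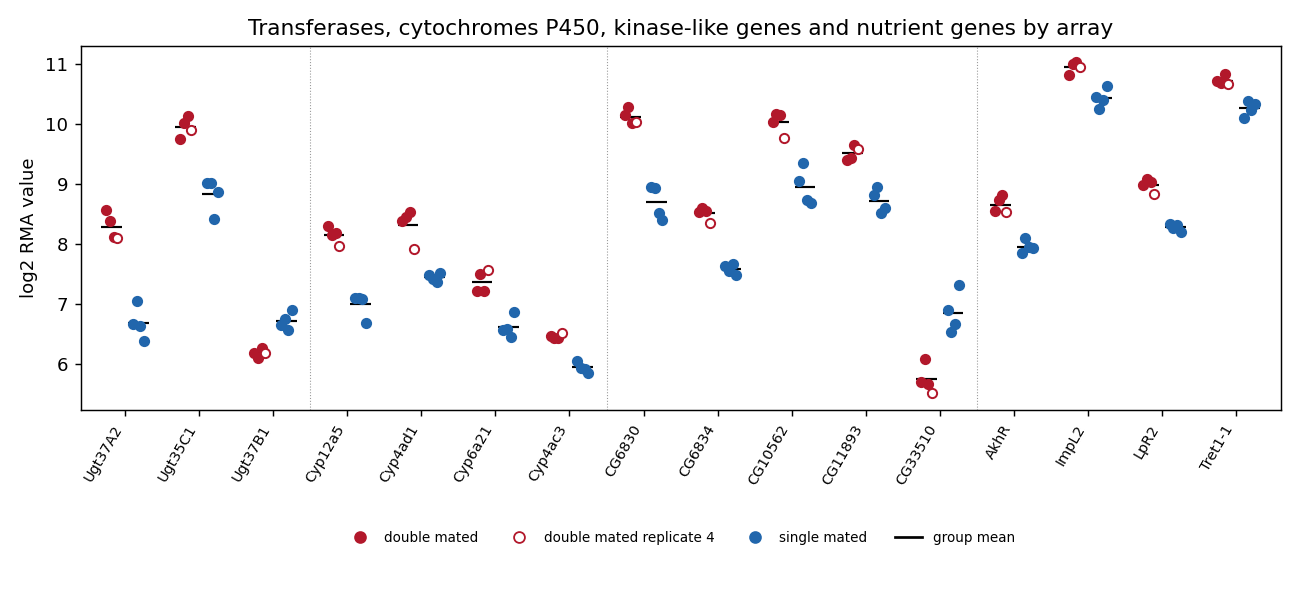
Log2 RMA values (y axis) of UDP-glycosyltransferases, cytochromes P450, predicted ecdysteroid kinases and nutrient genes, per array, with double mated arrays in red (replicate 4 open), single mated arrays in blue and group means in black. Double and single mated values are separate for all genes drawn, with Ugt37A2 3.04-fold and CG6830 2.68-fold higher and Ugt37B1 and CG33510 lower in double mated females.

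The 2 enzymes of juvenile hormone synthesis and breakdown that were called both fell. The enzyme for the last step of juvenile hormone synthesis, jhamt (1628177_at), read 6.66, 6.81, 6.76 and 6.07 in double mated females, against 7.74, 7.14, 7.92 and 7.84 in single mated females. All double mated values were lower, replicate 4 the lowest, and the level stood at 0.472 times the single mated level (95% interval 0.367 to 0.608) with adjusted p 0.00268. Without that replicate it was 0.53 times, adjusted p 0.0024. Virgin arrays read 5.24 to 5.44, below every mated array, so double mated females lay between virgin and single mated ones. The juvenile hormone esterase Jhe, which breaks the hormone down, read 5.57, 5.50, 5.26 and 5.50, against 6.57, 6.24, 6.44 and 6.24, at 0.53 times the single mated level (95% interval 0.451 to 0.624) and adjusted p 0.00049. Its virgin arrays, at 4.69 to 5.19, were also the lowest.

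Of the 23 hormone genes measured, 2 rose and 2 fell (6 and 3 without double mated replicate 4), against 4.67% and 2.06% of all genes. Broad (br), a transcription factor of the ecdysone response, read 6.92, 6.54, 6.63 and 6.82 in double mated females, against 6.00, 6.14, 6.09 and 6.09, and was higher by 1.57-fold (95% interval 1.36 to 1.8) with adjusted p 0.00167. That call rests on 1 probe set, and with the mean over the gene's probe sets the adjusted p was 0.189. Kr-h1, the transcription factor induced by juvenile hormone, read 8.91, 9.18, 8.98 and 8.51, against 8.42, 8.47, 8.59 and 8.65 in single mated females, and was not called (adjusted p 0.11). It passed without double mated replicate 4, at 1.4-fold and adjusted p 0.0103, and with array weights (adjusted p 0.0156). Virgin arrays of Kr-h1 lay far lower, at 6.89 to 7.31.

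Both metallothioneins that were called, of 4 measured, were lower than in single mated females. Another member, not called, went the other way: 1 of the 4 had a difference above 0, with all 4 double mated arrays above all 4 single mated arrays. MtnD (1631962_at), a metal-binding protein, read 9.33, 9.57, 8.97 and 8.57 in double mated females, against 9.88, 10.56, 10.23 and 10.79 in single mated females. There was no overlap, double mated replicate 4 was the lowest, and the level was 0.419 times the single mated level (95% interval 0.3 to 0.585) with adjusted p 0.00595. MtnB read 7.80, 7.81, 7.73 and 6.88, against 8.21, 8.50, 8.46 and 8.76, at 0.526 times the single mated level (95% interval 0.388 to 0.713) and adjusted p 0.0181. Replicate 4 was again the lowest, at over 0.8 under the other double mated arrays, and the call ended without single mated replicate 2 (adjusted p 0.0516). Virgin arrays read 8.70 to 9.37 for MtnD and 7.09 to 7.83 for MtnB. For both genes they overlapped the double mated arrays and lay below every single mated one.

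The other large decreases were in genes with less defined roles. CG12998 (1624525_at) had the largest decrease of any named gene, with 7.55, 7.84, 8.04 and 7.31 in double mated females against 9.04, 9.18, 9.02 and 9.35 in single mated females. The groups were nearly 1 log2 unit apart, the level was 0.362 times the single mated level (95% interval 0.298 to 0.44), and the adjusted p was 3.3e-05. CG10013 read 5.33, 5.85, 5.50 and 5.84, against 7.06, 6.44, 7.44 and 6.51, at 0.426 times the single mated level (95% interval 0.319 to 0.57) and adjusted p 0.00301. CG4830 was at 0.478 times the single mated level (95% interval 0.341 to 0.67), CG4563 at 0.499 times the single mated level (95% interval 0.398 to 0.624) and CG32523 at 0.579 times the single mated level (95% interval 0.488 to 0.686). Their double mated arrays lay at 8.18 to 8.85, 6.31 to 6.93 and 6.68 to 7.23, each below the single mated ranges of 9.23 to 9.84, 7.47 to 7.81 and 7.62 to 7.96. MFS1, a transporter of the major facilitator family, was at 0.524 times the single mated level (95% interval 0.387 to 0.708). Its call ended without any 1 of double mated replicate 3 and single mated replicate 1 (adjusted p up to 0.0521). Virgin arrays of CG4830 and MFS1 were lower than those of either mated group, at 6.79 to 8.07 and 5.85 to 6.80. AANATL4, an N-acetyltransferase-like gene, was at 0.541 times the single mated level (95% interval 0.418 to 0.699), the trypsin-like protease Ser8 at 0.59 times the single mated level (95% interval 0.465 to 0.75) and CG30265, one of the dimmest genes named, at 0.635 times the single mated level (95% interval 0.51 to 0.79). The CG30265 call ended without any 1 of double mated replicate 1 and single mated replicate 1 (adjusted p up to 0.0525).

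Large increases outside the families above were in CG13947, Damm, CG13309, CG13482, CG15044 and CG15784. Damm, a caspase, read 9.09, 9.18, 9.11 and 8.49 in double mated females, against 7.78, 6.77, 7.59 and 7.68 in single mated females, with no overlap. It was higher by 2.86-fold (95% interval 2.1 to 3.89) with adjusted p 0.0012, and it was the only 1 of 7 cell death genes called (1 higher and 1 lower without double mated replicate 4). CG13947 was higher by 2.89-fold (95% interval 2.21 to 3.79), and its probe set (1628376_x_at) is of the class that can bind related transcripts. CG13309 read 9.82, 9.90, 9.78 and 8.75, against 8.51, 8.51, 8.11 and 7.56, and was higher by 2.62-fold (95% interval 1.8 to 3.8). Its replicate 4 lay about 1 log2 unit below the other double mated arrays, and without it the difference was 3.16-fold. CG13482 was higher by 2.58-fold (95% interval 1.77 to 3.77), CG15044 by 2.34-fold (95% interval 1.77 to 3.1) and CG15784 by 2.27-fold (95% interval 1.9 to 2.72), each without overlap between the groups. Virgin arrays of CG13482 lay at 9.18 to 9.81, overlapping the double mated arrays (9.22 to 10.81) and above every single mated one (8.20 to 8.59).

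DNA replication genes were lower. None of the 24 measured members had a difference above 0, against 5144 of 11982 genes. The median was -0.24 against -0.02 over all genes, and 7 fell. Without double mated replicate 4, 18 fell. RPA2, which coats single-stranded DNA, read 10.82, 10.68, 10.66 and 10.80 in double mated females, against 11.23, 11.26, 11.31 and 11.06 in single mated females, at 0.718 times the single mated level (95% interval 0.65 to 0.793) and adjusted p 0.00138. It was below in all double mated arrays, and its virgin arrays lay highest, at 11.50 to 11.62. PCNA, the sliding clamp of the DNA polymerase, read 12.44, 12.30, 12.32 and 12.60, against 12.76, 12.74, 12.71 and 12.58, at 0.82 times the single mated level (95% interval 0.738 to 0.911). Double mated replicate 4 alone lay among the single mated values, and without it PCNA was at 0.786 times with adjusted p 0.00426. The PCNA call ended without any 1 of double mated replicates 1 to 3 and single mated replicates 1 to 3 (adjusted p up to 0.0951). The clamp loader subunit RfC4 was at 0.802 times and the origin recognition subunit Orc5 at 0.772 times. Both of these calls ended without any 1 of double mated replicates 2 and 3 and single mated replicates 1 to 3, with adjusted p up to 0.0748 and 0.0954. The mean of the list was 10.36 to 10.77 in double mated, 10.65 to 10.86 in single mated and 10.98 to 11.06 in virgin arrays, and the highest double mated array was replicate 4.

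Of 28 germline genes 1 rose and 2 fell (10.7% called, against 6.74% of all genes). Without double mated replicate 4 the calls were 0 higher and 5 lower. The gene bam, which starts the differentiation of germline stem cell daughters, read 9.22, 9.09, 9.16 and 9.59 in double mated females, against 9.81, 9.92, 9.84 and 9.60 in single mated females, at 0.693 times the single mated level (95% interval 0.594 to 0.81) and adjusted p 0.0103. Without replicate 4, the double mated array nearest to the single mated ones, it was 0.643 times with adjusted p 0.000797. The gene stwl, needed to keep germ cells and oocytes, was at 0.756 times the single mated level (95% interval 0.662 to 0.865). Its call ended without any 1 of double mated replicates 2 and 3 and single mated replicates 1 to 3 (adjusted p up to 0.0606). The translation regulator orb was higher by 1.26-fold (95% interval 1.11 to 1.44). That call ended without any 1 of double mated replicates 1 to 4 and single mated replicates 1, 2 and 4 (adjusted p up to 0.0984). The oocyte determinant osk read 13.13 to 13.60 in double mated and 13.20 to 13.24 in single mated females and was not called.

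Inner eggshell genes, made by the follicle cells around the oocyte, were higher. Of 10 vitelline membrane and early eggshell genes measured, 5 rose, none fell, all 10 differences were above 0, and the median was 0.55. The gene psd, which encodes a protein needed to assemble the vitelline membrane, read 10.72, 10.44, 10.53 and 10.35 in double mated females, against 9.25, 9.59, 9.30 and 9.82 in single mated females. Its groups did not overlap, and the difference was 2.03-fold (95% interval 1.66 to 2.48), adjusted p 0.000946. The eggshell gene dec read 12.97, 12.18, 12.21 and 12.42, against 11.59, 11.63, 11.17 and 11.85, and was higher by 1.85-fold (95% interval 1.42 to 2.41) (adjusted p 0.0113). Vm32E was higher by 2.11-fold (95% interval 1.53 to 2.92), with double mated replicate 1 far above the others at 12.29. Vm26Aa, among the brightest genes on the arrays, read 14.56, 14.27, 14.24 and 14.17, against 13.69, 13.88, 13.49 and 13.96, and was higher by 1.47-fold (95% interval 1.2 to 1.8). The Vm26Aa call ended without any 1 of double mated replicates 1 to 3 and single mated replicates 1 to 3 (adjusted p up to 0.0927). The fifth, not selected by the naming rule, was Vm26Ac (1.85-fold, adjusted p 0.0461). Levels over the list were 11.50 to 12.32 in double mated, 10.81 to 11.52 in single mated and 10.50 to 11.00 in virgin arrays. Among 7 outer eggshell (chorion) genes, made later in the same cells, none was called (1 at an unadjusted p under 0.05) and the median was 0.12. Values near 15 are close to the upper end of the scale, where array signal compresses differences.

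**Figure D4:**
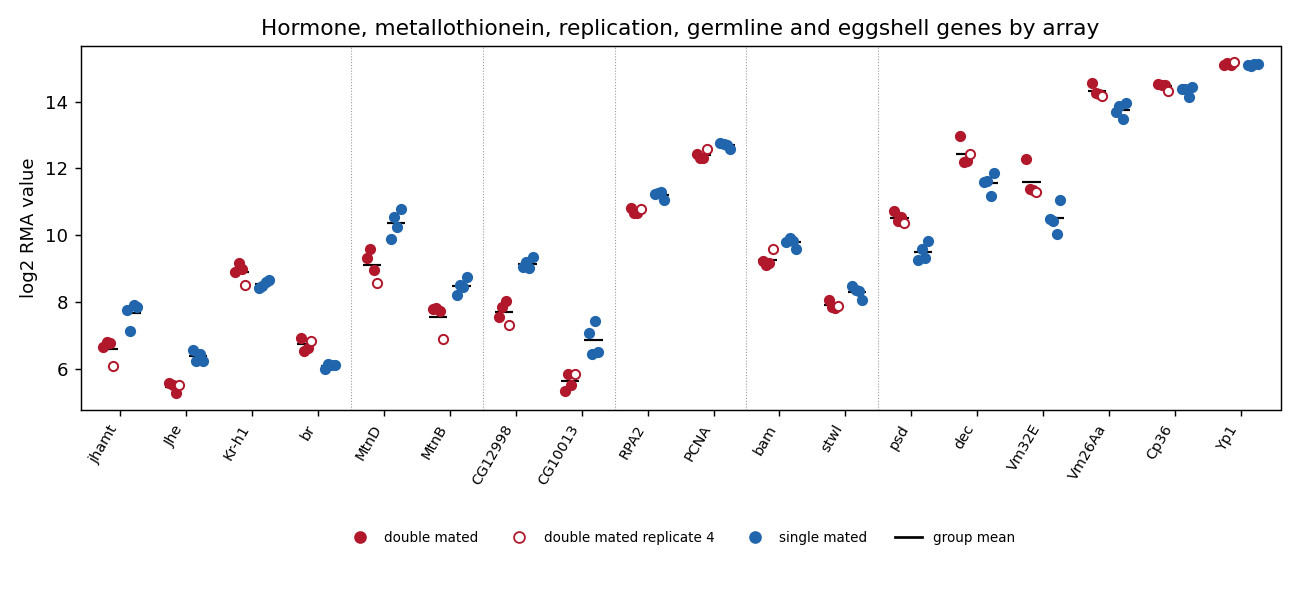
Log2 RMA values (y axis) of hormone, metallothionein, replication, germline and eggshell genes by array, double mated in red (replicate 4 open), single mated in blue, group means in black. The genes jhamt, Jhe, MtnD, CG12998 and RPA2 are lower in every double mated array, psd, dec and Vm32E are higher in every one, and Cp36 and Yp1 overlap between the groups.

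Genes made by the male accessory gland and testis were read as markers of male RNA. None of 25 accessory gland genes and none of 23 testis and sperm genes was called in limma (1 and 4 at an unadjusted p under 0.05). Mean levels over these lists lay at 4.19 to 4.31 and 4.54 to 4.59 in double mated, against 4.21 to 4.29 and 4.60 to 4.67 in single mated females. Sex peptide (SP) itself read 3.95 to 4.17, against 4.02 to 4.27, Acp26Aa, which triggers ovulation, read 3.41 to 3.89, against 3.57 to 3.62, and Acp36DE, needed for sperm storage, read 3.76 to 4.06, against 3.72 to 4.12. The sperm tubulin betaTub85D read 3.87 to 4.19, against 4.10 to 4.21 (adjusted p 0.179), and was the 1 testis gene called, as lower, without double mated replicate 4 (0.833 times, adjusted p 0.0312). It also passed with array weights (adjusted p 0.0478). Virgin arrays of SP were at 3.98 to 4.09, so levels like these were also read in females that had not mated. None of 18 early embryo genes was called (3 at an unadjusted p under 0.05, and 1 called lower without double mated replicate 4), with list means of 5.45 to 5.94 in double mated, 5.47 to 5.60 in single mated and 5.41 to 5.49 in virgin arrays. Secreted proteases of the sperm storage glands had no call among 12 (2 at an unadjusted p under 0.05), with a median of -0.13.

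Among 12 postmating neural and oviduct genes only Timp, an inhibitor of matrix metalloproteases, rose (1.23-fold (95% interval 1.11 to 1.36), adjusted p 0.0241). This call ended without any 1 of double mated replicates 1 to 3 and single mated replicates 1 to 3 (adjusted p up to 0.0797). The sex peptide receptor SPR read 7.68, 7.70, 7.85 and 7.75 in double mated females, against 7.60, 7.95, 8.00 and 7.99 in single mated females, and was not called (-0.14 on the log2 scale, adjusted p 0.437). The sex determination gene dsx read 8.58 to 8.98, against 8.66 to 9.00 (adjusted p 0.871). For both genes the mated groups overlapped while virgin arrays lay lower, at 7.19 to 7.52 and 7.57 to 7.97.

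Digestive proteases that were called all rose. Among Jonah proteases 2 of 13 rose, Jon65Ai and Jon74E, and among trypsins 2 of 12, epsilonTry and yip7. With double mated replicate 4 left out the counts were 4 and 5, none of them lower. The midgut trypsin epsilonTry read 13.67, 13.62, 13.69 and 13.38 in double mated females, against 12.96, 13.12, 13.27 and 13.06 in single mated females, and was higher by 1.4-fold (95% interval 1.22 to 1.61) (adjusted p 0.00897). Jon65Ai read 11.38, 11.77, 11.40 and 10.76, against 10.67, 10.39, 10.31 and 10.81, so that replicate 4 fell into the single mated range, and was higher by 1.72-fold (95% interval 1.29 to 2.3). Without that array it was 1.96-fold with adjusted p 0.00419. The Jon65Ai call ended without any 1 of double mated replicates 1 to 3 and single mated replicates 1 to 3 (adjusted p up to 0.094). Jon74E (1.21-fold) and yip7 (1.23-fold) also lost their calls, at adjusted p up to 0.103 without 1 of double mated replicates 1 to 3, single mated replicates 1 to 3 and virgin replicates 2 and 3 and 0.0913 without 1 of double mated replicates 1 to 3 and single mated replicates 1 to 3. Of 12 maltases and amylases, which digest starch and sugars, 2 fell. Amyrel was at 0.711 times the single mated level (95% interval 0.594 to 0.85). It lost its call without any 1 of double mated replicates 1 to 3 and single mated replicates 1 to 3 (adjusted p up to 0.0934). Mal-A7 was at 0.523 times the single mated level (95% interval 0.359 to 0.764), had overlapping groups (8.40, 8.89, 8.06 and 9.34, against 9.88, 9.38, 10.00 and 9.17), and lost its call in 9 of 12 fits that left out 1 array, with adjusted p up to 0.127 (without double mated replicates 1 to 3, single mated replicates 1 to 3 and virgin replicates 1, 3 and 4). No member of the 12 mannosidases, lysozymes and lipases was called (3 at an unadjusted p under 0.05), and 3 were called without double mated replicate 4. Of 12 alkaline phosphatases 3 rose (5 without double mated replicate 4). Alp4, with the smallest p of them, read 11.11, 11.47, 11.45 and 11.23, against 10.86, 10.90, 10.78 and 10.78, and was higher by 1.4-fold (95% interval 1.24 to 1.58) (adjusted p 0.00471). Alp2 (1.89-fold) and Alp10 (1.42-fold) lost their calls at adjusted p up to 0.0877 without 1 of double mated replicates 2 and 3 and single mated replicates 1, 3 and 4 and 0.122 without 1 of double mated replicates 2 and 3, single mated replicates 1 to 4 and virgin replicates 1 to 4.

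Both core clock genes that were called, of 10 measured, were higher (2 higher and 1 lower without double mated replicate 4). The clock protein gene tim read 9.34, 9.66, 9.67 and 9.50 in double mated females, against 9.02, 8.84, 8.98 and 8.82 in single mated females, and vri, a clock transcription factor, read 8.81, 8.79, 8.81 and 8.68, against 8.20, 8.14, 8.22 and 8.26. Groups did not overlap for either, with differences of 1.54-fold (95% interval 1.34 to 1.77) and 1.48-fold (95% interval 1.33 to 1.65) and adjusted p of 0.002 and 0.000829. The partner gene per read 6.57 to 6.82, against 6.43 to 6.68, and was not called (adjusted p 0.274). A difference in the hour of freezing was not tested, since no such hour is given.

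The nerve, eye and muscle genes that were called all rose, by at most 1.36-fold, while 69.4% of all called genes were higher. Among 27 neuropeptides 2 rose (7.41%, near the 6.74% of all genes called). Without double mated replicate 4 the neuropeptide calls were 4 higher and 1 lower. Allatostatin C (AstC), a peptide of brain and gut, read 7.93, 8.13, 7.95 and 7.94 in double mated females, against 7.60, 7.59, 7.53 and 7.72, and was higher by 1.3-fold (95% interval 1.18 to 1.43) (adjusted p 0.00445). Nplp1 was higher by 1.22-fold, a call that ended without any 1 of double mated replicates 2 and 3 and single mated replicates 1, 2 and 4 (adjusted p up to 0.0935). Muscle genes had 4 of 19 called, Zasp66, TpnC73F, Tm2 and Act87E at 1.29, 1.36, 1.28 and 1.25-fold, and photoreceptor genes 4 of 13, trp, Galphaq, Arr1 and chp at 1.26, 1.21, 1.2 and 1.19-fold. Of 15 neuron genes, the synaptic gene Snap25 rose (1.21-fold). The shares called were 21.1% of muscle, 30.8% of photoreceptor and 6.67% of neuron genes, the last near that of all genes. The photoreceptor and neuron counts were 5 and 2 without double mated replicate 4, all higher. Each of these 9 calls ended when 1 array was left out, with adjusted p up to 0.0554 for Zasp66, 0.0807 for TpnC73F, 0.103 for Tm2, 0.13 for Act87E, 0.0576 for trp, 0.0903 for Galphaq, 0.107 for Arr1, 0.124 for chp and 0.125 for Snap25. For trp the array was single mated replicate 2, for Zasp66 the arrays were double mated replicate 3 and single mated replicates 1 and 2, and for the others single mated replicate 2 was also among at least 5 arrays. Without double mated replicate 4, the Act87E call was 1 of those lost (adjusted p 0.0567). With the mean over a gene's probe sets, the calls of Zasp66 and Galphaq ended too (adjusted p 0.106 and 0.0838).

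Odorant-binding proteins, small secreted carriers that are also made outside sense organs, had 5 of 47 called, all higher (10, all higher, without double mated replicate 4). Obp56a read 9.85, 9.85, 9.90 and 9.56 in double mated females, against 8.83, 8.51, 9.17 and 8.56 in single mated females, and was higher by 2.03-fold (95% interval 1.68 to 2.45) (adjusted p 0.000604). Obp18a was higher by 1.38-fold (95% interval 1.19 to 1.61). Its groups overlapped, with double mated replicate 4 at 9.33 and single mated replicate 4 at 9.36. The Obp18a call ended in the limma fit to the 8 mated arrays alone (adjusted p 0.0529). Obp56h (1.89-fold) and Obp56e (1.5-fold) lost their calls at adjusted p up to 0.0718 without 1 of double mated replicate 3 and single mated replicate 3 and 0.0831 without 1 of double mated replicates 1 to 3 and single mated replicates 1 to 3, and the fifth was Obp56d, with 1.32-fold. None of 166 odorant, taste and ionotropic receptors was called in limma (21 at an unadjusted p under 0.05, a smaller share than over all genes). The calls without double mated replicate 4 were 2 higher and 5 lower. Their mean level was 4.28 to 4.32 in double mated and 4.32 to 4.38 in single mated females, near that of the male gland genes.

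Few housekeeping genes were called. Calls were 0 of 40 cytosolic ribosomal proteins, 0 of 69 respiratory chain subunits, 0 of 13 ribosome biogenesis genes and 0 of 31 vacuolar proton pump subunits, with 0, 1, 1 and 3 members at an unadjusted p under 0.05. Of the proton pump subunits 2 were called lower without double mated replicate 4. Among 69 mitochondrial ribosomal proteins mRpL3 fell (0.872 times the single mated level (95% interval 0.807 to 0.942)), among 40 proteasome subunits Rpn12 fell (0.844 times the single mated level (95% interval 0.777 to 0.916)), and among 55 translation initiation factors and tRNA synthetases eIF3a and eIF2A rose (both 1.19-fold) and eIF4B fell (at 0.838 times). All 5 of these calls ended in at least 4 fits that left out 1 array, with adjusted p up to 0.118 for mRpL3, 0.0645 for Rpn12, 0.0887 for eIF3a, 0.0994 for eIF2A and 0.0913 for eIF4B. The arrays were double mated replicates 1 to 3, single mated replicates 1 to 3 and virgin replicates 1 to 4 for mRpL3, double mated replicate 1 and single mated replicates 1 to 3 for Rpn12, double mated replicates 1 to 3 and single mated replicates 1, 2 and 4 for eIF3a, double mated replicates 1 to 3 and single mated replicates 1 and 2 for eIF2A and double mated replicate 1, single mated replicates 1 to 4 and virgin replicates 1 and 2 for eIF4B. Proteasome subunits were mostly lower by small amounts: 4 of 40 differences were above 0, the median was -0.11, and list means were 9.25 to 9.29 in double mated, 9.33 to 9.41 in single mated and 9.47 to 9.54 in virgin arrays. Of these, 3 were called lower without double mated replicate 4. With the mean over its probe sets eIF4B was not called either (adjusted p 0.840). Of 5 heat shock genes 1 was called, and without double mated replicate 4 the calls were 1 higher and 3 lower. Hsp26 fell: it read 13.81, 13.44, 13.38 and 13.96 in double mated females, against 14.13, 14.06, 14.13 and 13.91, at 0.753 times the single mated level (95% interval 0.64 to 0.887) and adjusted p 0.0444, with replicate 4 inside the single mated range. Its call also ended with cyclic loess and with median centring of the arrays (adjusted p 0.0668 and 0.0516). The Hsp26 call ended too without any 1 of double mated replicates 2 and 3, single mated replicates 1 to 3 and virgin replicates 1 to 4 (adjusted p up to 0.128). Of 101 cuticular proteins 1 rose (Cpr47Ee, 1.27-fold). This call ended without any 1 of double mated replicates 2 and 3, single mated replicates 1 to 4 and virgin replicates 2 and 3 (adjusted p up to 0.111). In this family 4 were called higher and 2 lower without double mated replicate 4. No call was made among 23 Osiris genes or 3 vanin-like enzymes (4 and 0 at an unadjusted p under 0.05).

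**Figure D5:**
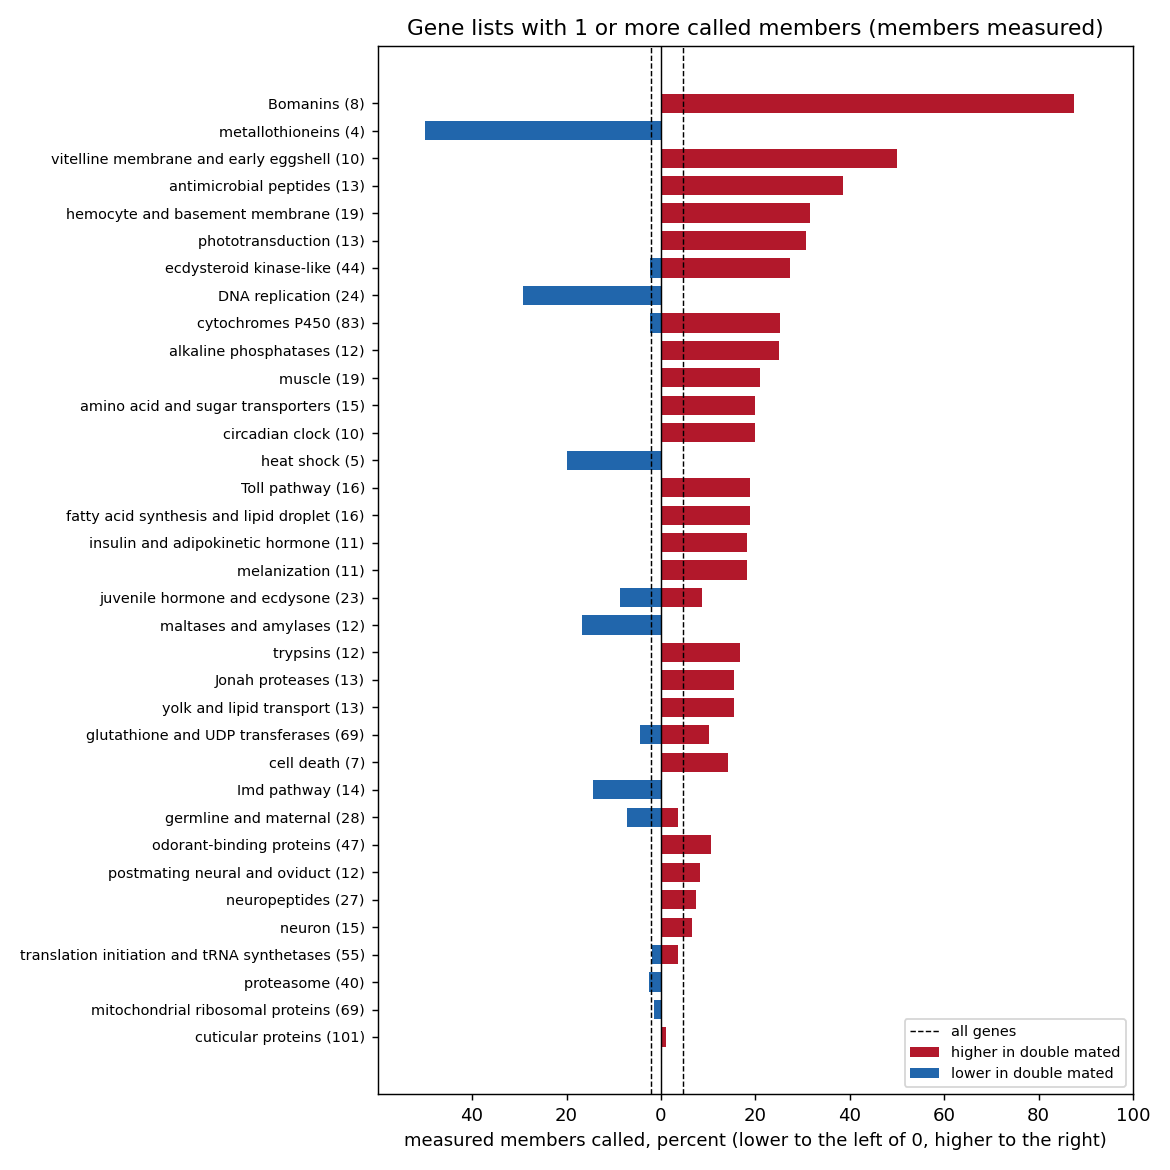
Share of measured members called higher (red, to the right) or lower (blue, to the left) in double mated females for each gene list with a called member, in percent, with the number measured in parentheses and the shares over all genes as dashed lines (4.67% higher, 2.06% lower). Bomanins (7 of 8), eggshell genes (5 of 10) and antimicrobial peptides (5 of 13) have the longest red bars. Metallothioneins (2 of 4) and DNA replication genes (7 of 24) have the longest blue ones, and lists of 4 or 5 genes rest on 1 or 2 calls.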

How the data were processed

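RNA from 12 pools of 8 whole females was measured on 12 arrays, in 4 double mated, 4 single mated and 4 virgin pools with separate extractions. The deposited values are log2 intensities made by the authors with RMA in the affy package, per the submitters' processing notes. Software versions are not given in the sources used here. RMA as a method includes quantile normalization, which gives the arrays a common distribution and so hides any overall shift between groups. Arrays have no read depth, and their number limits the precision.

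Group means were fitted to all 12 arrays with limma 3.58.1 in R 4.3.3 (lmFit, contrast of double minus single mated, eBayes), and p-values were adjusted over 18769 probe sets by the Benjamini-Hochberg method. The rule for a call was an adjusted p under 0.05, and 95% intervals come from the same fit. The procedure was tested on simulated data. The platform annotation gave a single symbol to 13647 probe sets, several to 402 and none to 4720, and 13544 of the first were matched to RefSeq by gene ID. A gene was represented by the probe set with the highest mean over the 12 arrays. P-values set the difference of group means against the spread between pools within groups, estimated from all 12 arrays with the virgin ones included. Tables were handled in Python 3.11.15 with pandas 2.3.3, and figures drawn with matplotlib 3.10.9.

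Genes named by rule were the 15 largest called increases, the 15 largest called decreases, up to 4 called members of each of 49 lists by smallest p, and 17 set genes, 120 in all. The comparison, its members and the lists were chosen with earlier results of these data known. Deviations of same-numbered double and single mated arrays from their group means were not positively correlated (-0.04, -0.10, -0.17 and -0.26). The 3′ control for 18S ribosomal RNA was highest on replicate 1 of both groups, at 9.86 (double mated) and 10.12 (single mated). The other mated arrays read 7.01 to 8.83. Whether same-numbered arrays shared any handling was not tested. Alternatives were the 8 mated arrays alone, a replicate block, cyclic loess, median centring, a signal filter, an intensity trend, array weights, a threshold of 0.01, another rule for representing a gene, and leaving out each array.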

Additional observations from a re-analysis of the deposited data

Results flagged for a closer look

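In 18 of 248 groups of 4 arrays tested (double mated and single mated, for 120 named genes and 4 array measures), 1 array lay far from the other 3, judged by its gap to the nearest of them as a share of the group's range. Chance sets apart about 1 in 20 groups. Double mated replicate 4 was that array in 8 groups, and lowest in each. It read 8.98 for Def (others 9.28 to 9.33, gap 0.867), 8.49 for Damm (9.09 to 9.18, gap 0.868), 8.75 for CG13309 (9.78 to 9.90, gap 0.89) and 6.88 for MtnB (7.73 to 7.81, gap 0.92). It read 8.46 for sphe (9.02 to 9.05, gap 0.939), 8.77 for LanB1 (9.03 to 9.09, gap 0.829), 8.68 for vri (8.79 to 8.81, gap 0.851) and 9.56 for Obp56a (9.85 to 9.90, gap 0.851).

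Other double mated arrays stood apart, all on the high side, in 5 genes. Replicate 1 read 5.36 for AANATL4 (others 5.18 to 5.19, gap 0.943), 12.29 for Vm32E (11.31 to 11.38, gap 0.928) and 9.90 for mRpL3 (9.83 to 9.84, gap 0.887). Replicate 2 read 8.13 for AstC (7.93 to 7.95, gap 0.884), and replicate 3 read 14.61 for yip7 (14.49 to 14.50, gap 0.972).

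Among single mated arrays, replicate 3 was high for BomT3 (9.29, others 8.85 to 8.92, gap 0.842). Replicate 4 was low for Cyp12a5 (6.68, others 7.08 to 7.10, gap 0.963). Replicate 1 was low for Ugt35A1 (8.25, others 8.42 to 8.45, gap 0.842) and for SPR (7.60, others 7.95 to 8.00, gap 0.886), and replicate 2 for Cpr47Ee (5.51, others 5.79 to 5.82, gap 0.907).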

How the results depend on the processing

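Of 106 named genes called, 47 were called under every alternative run and none changed direction under any. Called probe sets numbered 992 (666 higher, 326 lower). They were 550 (435 and 115) from the 8 mated arrays alone, 661 (492 and 169) with a replicate block, 2195 (1207 and 988) with array weights and 307 (253 and 54) at adjusted p under 0.01. With a mean signal of at least 6 the count was 1342 (843 and 499). Leaving out 1 array in turn gave 527 to 2171 called, 380 to 1186 higher and 144 to 985 lower, the ends being single mated replicates 2 and 3 and double mated replicate 4. After the data were seen, replicate 4 was also left out with a replicate block, 1689 (1018 and 671), and with cyclic loess, 2135 (1263 and 872). The alternatives above differ in the arrays, probe sets, scaling, model or threshold used. The fit to the 8 mated arrays also leaves the virgin arrays out of the estimate of the spread. It ended 35 of the 106 calls of named genes, and not each of these is given above. Apart from the stricter threshold, which can only lower the count, the cause of the changes in the counts was not tested. The share of higher calls was 79.1% with the 8 arrays, 74.4% with the block and 55.0% with array weights. No scaling moved it by over 10 points. The replicate block is a description only, since the labels give no batch and shared handling of same-numbered arrays was not tested. Cyclic loess gave 1029 calls, median centring 973 and an intensity trend 1113. With 4 pools a group, probe sets near the background and those near the top of the scale are measured least well, and a gene that was not called is not shown to be alike in both groups.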

Other observations

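The genes and probe sets given here lie outside the rule for named genes and were chosen after their values were seen. The growth-blocking peptides Gbp1 and Gbp2, cytokines of insects, stood at 8.27 to 8.63 and 10.36 to 10.58 in double mated females, against 7.49 to 7.62 and 9.96 to 10.12 in single mated females, and were higher by 1.84-fold (95% interval 1.66 to 2.05) and 1.39-fold (95% interval 1.26 to 1.53), with adjusted p 1.98e-05 and 0.0012. The eggshell protease ndl, which acts in dorsoventral patterning of the embryo, read 9.29, 9.32, 9.32 and 9.22 in double mated females, against 8.37, 8.50, 8.35 and 8.53 in single mated females, a difference of 1.8-fold (95% interval 1.59 to 2.04) with adjusted p 9.34e-05. The septate junction gene mesh read 9.02, 9.08, 8.97 and 8.73 in double mated females, against 8.12, 8.11, 8.18 and 8.19 in single mated females, and was higher by 1.74-fold (95% interval 1.49 to 2.04) (adjusted p 0.00101). The RNA-binding protein gene Rbfox1 was higher by 1.46-fold (95% interval 1.35 to 1.59), at 7.62 to 7.71 in double mated and 7.02 to 7.21 in single mated females (adjusted p 0.000111). The histone acetyltransferase gene Hat1 was lower, at 9.61, 9.54, 9.65 and 9.74 in double mated females, against 10.37, 10.37, 10.28 and 10.03 in single mated females, or 0.647 times the single mated level (95% interval 0.576 to 0.726) (adjusted p 0.000604).

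The smallest adjusted p-values of all belonged to a pair of probe sets with no gene symbol here. Probe set 1627551_s_at read 11.53, 11.48, 11.23 and 11.22 in double mated females, against 9.23, 8.70, 9.22 and 9.11 in single mated females and 7.24 to 7.28 in virgin females, a difference of 4.93-fold (95% interval 4.2 to 5.79) between the mated groups (adjusted p 7.03e-08). Probe set 1625124_at read 10.81, 10.70, 10.50 and 10.41 in double mated females, against 8.34, 7.70, 8.29 and 7.96 in single mated and 5.24 to 5.73 in virgin females, a difference of 5.79-fold (95% interval 4.69 to 7.15) (adjusted p 3.86e-07). For both, the 3 groups were separate, and levels were highest in double mated and lowest in virgin females.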
